A study of Homo sapiens with 9 samples.

Results

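The genes described here are 59 genes of the cell cycle and of DNA replication, chosen by name: 21 replication genes, 16 cyclin-dependent kinases, cyclins and their partners, and 22 genes of mitosis. They were measured in HaCaT cells, an immortalized line of human keratinocytes. Per the study's methods, the cells were first starved of serum to synchronize them, and serum was added back before the experiments. Each of 3 biological samples (A, B and C) set cells exposed for 1 h against non-exposed control cells, called sham cells here. The exposure was to an extremely low frequency electromagnetic field (ELF-EMF, frequency 50 Hz, intensity 1 mT). The study's methods place the control cells in a separate incubator of the same kind without the field. Field and incubator therefore cannot be told apart. The RNA of exposed and of sham cells was hybridized together on 2-colour Phalanx arrays, with 3 arrays per sample and 9 in all. On 2 arrays of each sample, called forward arrays here, the exposed RNA carried Cy5, and on the third, the dye swap, it carried Cy3. All samples are of 1 cell line at 1 time, and nothing in the labels says how far apart the cultures were grown. The p-values below therefore speak only for these samples.

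Each value is the log2 ratio of exposed over sham cells for 1 probe, with the dye swaps turned. A ratio above 0 means more RNA in exposed cells. The files give no level for either kind of cell, so no gene can be ranked by abundance. In RNA of a whole culture, fewer cells of a type and less RNA per cell cannot be told apart. The value of a biological sample was the average of its forward mean and its dye swap, so that a constant dye bias cancels (dye-balanced value). The array table names probes for 55 of the 59 genes, by 61 probes of 30968. CDC20, TOP2A, PTTG1 and CDC25C were not analysed here, since no probe is named for them.

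Before a cell divides, cyclin-dependent kinases drive it through an ordered cycle. In G1 phase the cyclin D kinases CDK4 and CDK6, and then cyclin E with CDK2, release E2F transcription factors, which switch on the genes of S phase. Origins of replication are licensed when ORC, CDC6 and CDT1 load the MCM helicase, and PCNA then holds the polymerases on DNA while ribonucleotide reductase supplies nucleotides. Genes of G2 phase and mitosis, such as cyclin B and the Aurora kinases, are transcribed later, and many of their promoters hold a CHR element near the start and CCAAT boxes upstream. In epidermis, division is largely confined to the basal keratinocytes.

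The promoters of the genes that the results turn on show these classes of control sequence. Of the 59 genes 47 matched the RefSeq promoter table (GRCh38.p14), with 64 promoters of 300 bases each, 250 before and 50 after the start. The genes with no entry were AURKA, BIRC5, CCND1, CCNE2, CDK2, MCM4, MCM5, RAD21, RPA2, TPX2, TTK and UBE2C. The letters searched on both strands were the E2F motif (TTTCCCGC, TTTCGCGC, TTTGCCGC or TTTGGCGC), the CHR (TTTGAA) and the CCAAT box (CCAAT). Matches are in capitals, and on the opposite strand they read as the reverse complement. CKS1B is shown because it passed the test, CKS2 as its closest relative, CCNB2 as a tested G2 cyclin, and PCNA and ORC3 as tested replication genes.
CKS1B: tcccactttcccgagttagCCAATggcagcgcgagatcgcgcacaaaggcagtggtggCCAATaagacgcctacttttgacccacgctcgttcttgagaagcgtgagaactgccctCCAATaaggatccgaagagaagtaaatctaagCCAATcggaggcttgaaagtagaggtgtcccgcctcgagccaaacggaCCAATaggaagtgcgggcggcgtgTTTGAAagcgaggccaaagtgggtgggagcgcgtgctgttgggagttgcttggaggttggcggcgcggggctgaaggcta
CKS2: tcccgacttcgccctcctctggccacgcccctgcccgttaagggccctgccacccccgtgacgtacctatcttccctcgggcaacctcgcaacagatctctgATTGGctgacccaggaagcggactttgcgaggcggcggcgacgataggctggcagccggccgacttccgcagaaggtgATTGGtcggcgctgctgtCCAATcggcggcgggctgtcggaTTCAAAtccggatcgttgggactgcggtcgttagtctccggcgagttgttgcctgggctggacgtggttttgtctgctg
CCNB2: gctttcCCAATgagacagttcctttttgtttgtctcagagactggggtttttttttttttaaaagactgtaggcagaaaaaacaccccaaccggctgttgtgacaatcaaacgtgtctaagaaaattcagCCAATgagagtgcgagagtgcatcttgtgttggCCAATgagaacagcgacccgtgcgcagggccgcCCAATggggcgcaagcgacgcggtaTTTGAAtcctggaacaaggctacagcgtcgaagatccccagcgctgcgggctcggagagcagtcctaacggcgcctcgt
PCNA: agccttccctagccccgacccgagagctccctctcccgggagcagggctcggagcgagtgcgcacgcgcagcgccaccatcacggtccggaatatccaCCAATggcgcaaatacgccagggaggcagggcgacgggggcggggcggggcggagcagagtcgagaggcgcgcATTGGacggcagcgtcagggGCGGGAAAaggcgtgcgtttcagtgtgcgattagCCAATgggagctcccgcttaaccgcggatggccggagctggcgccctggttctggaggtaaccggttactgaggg
ORC3: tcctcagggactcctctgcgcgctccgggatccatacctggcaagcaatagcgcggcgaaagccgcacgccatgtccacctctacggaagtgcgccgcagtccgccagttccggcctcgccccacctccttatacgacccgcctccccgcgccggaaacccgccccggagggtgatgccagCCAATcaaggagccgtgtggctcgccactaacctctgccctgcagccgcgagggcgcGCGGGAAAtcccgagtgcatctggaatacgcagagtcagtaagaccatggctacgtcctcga
The CKS1B promoter (chr1:154974431-154974730, plus strand) held 5 CCAAT boxes and 1 CHR, whose first base lies 30 bases upstream of the start. That of CKS2 (chr9:89310945-89311244, plus strand) held 3 CCAAT boxes and 1 CHR, 29 bases upstream. That of CCNB2 (chr15:59104896-59105195, plus strand) held 4 CCAAT boxes and 1 CHR, also 29 bases upstream. The promoter shown for PCNA, 1 of its 2 in the table (chr20:5126573-5126872, minus strand), held 3 CCAAT boxes and 1 E2F motif, 59 bases upstream. That of ORC3 (chr6:87589885-87590184, plus strand) held 1 CCAAT box and 1 E2F motif, 12 bases upstream.

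The classes differed in the letters of their promoters. The E2F motif was found in 14 of 25 promoters of replication genes (56%), in 4 of 21 of the kinases and partners (19%) and in 2 of 18 of the mitotic genes (11.1%), against 1164 of all 35116 promoters in the table (3.31%). The CHR showed the opposite order, with 1 of 25 in replication genes (4%), 7 of 21 in the kinases and partners (33.3%) and 11 of 18 in the mitotic genes (61.1%), against 15.2% of all promoters. CCAAT boxes were in 72%, 61.9% and 83.3% of the promoters of these classes, in the same order, against 34.6% of all. Motifs of different kinds overlapped in 2 places. These matches are descriptions of letters, and several promoters of 1 gene are not independent.

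**Figure D1:**
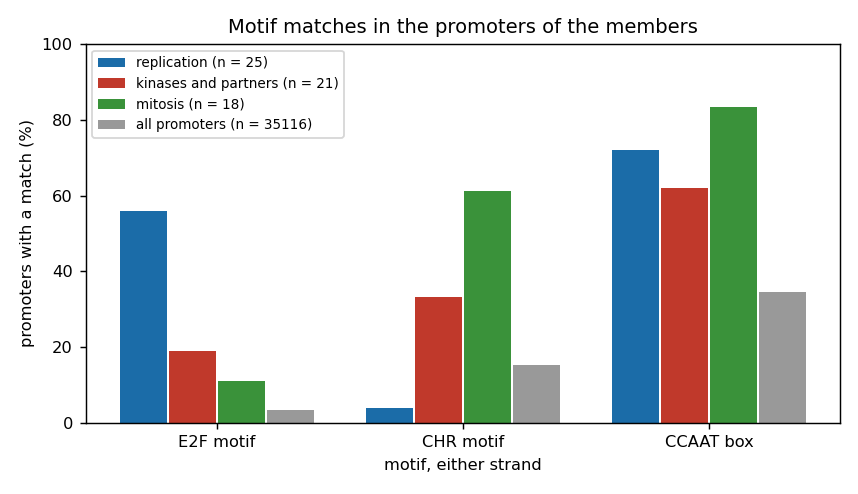
Share of promoters (vertical axis, percent) with at least 1 match to each motif on either strand, for the 3 classes of cell cycle genes and for all promoters of the RefSeq table. E2F letters were in 56% of the promoters of replication genes and CHR letters in 61.1% of those of mitotic genes, against 3.31% and 15.2% of all promoters.

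One array must be named before the results. The second array of sample C is labelled as a forward array. Its ratios over all probes correlated between -0.19 and 0.10 with the other forward arrays. With the dye swaps, read as Cy5 over Cy3 before turning, they correlated between 0.36 and 0.42. Turning the dye swaps reverses the sign of these last correlations. The 10 pairs of the 5 other forward arrays correlated between 0.06 and 0.48. The array was kept as labelled, and the calls for CKS1B and CDK2 and for the dye are also given without it. As a check of the cells, 14 of the 18 probes of keratinocyte markers had a value on some array, against 1 of 8 for fibroblast, 1 of 9 for melanocyte and 2 of 4 for leukocyte markers.

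Most array values are missing, and the cell cycle genes of this set were measured more often than other genes. An array gave values for 1164 to 7250 probes. Of the 61 cell cycle probes 52 had a value on at least 1 array (85.2%), against 40.6% of all probes with a gene symbol. A dye-balanced value in all 3 samples was present for 11 (18.0% against 2.83%). The classes differed here, with 6 of 23 replication probes, 4 of 16 probes of kinases and partners, and 1 of 22 mitotic probes. In the lists of related cell cycle genes described below, 60.5% to 76.9% of probes had a value on some array. Dye-balanced values in all 3 samples were present for 0% to 12% of them. The genes were chosen with earlier results of these data known, and what that choice adds to their coverage was not tested. The step that left probes without a value is not given in the sources used here. The probes of CDC25A, CDK6, CCNE1, CCNE2, BUB1, BUB1B, KIF23 and SLBP, and a second RRM2 probe listed on the array as C2orf48, had no value on any array.

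Of the 11 fully measured genes, the kinase CDK2 and the kinase subunit CKS1B were lower in exposed cells, and 9 did not pass the test. None was higher. Limma (adjusted p under 0.05 over the 570 probes with dye-balanced values in all 3 samples) called 22 probes lower, a background of 3.86%, and 0 higher (0%), with 116 at an unadjusted p under 0.05. The count among the cell cycle genes was 2 of 11 (18.2%). The median log2 ratio of the 11 was -0.16, with 7 below 0 and 4 above, against -0.12 over the 570 probes. Of those 570 probes, 75.3% lay below 0. Among the 11, 6 lay below that median of all probes. Limma gave each of the 570 probes the same standard error of 0.15, and an exact sign-flip test of 3 samples cannot go below p = 0.25.

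CKS1B is a small protein that binds cyclin-dependent kinases and helps the SCF ubiquitin ligase mark the inhibitor p27 for destruction. Its log2 ratios in sample A were 0.30 and -0.45 on the forward arrays and -0.94 on the dye swap. In sample B they were -0.20 and -0.80, with -1.59 on the dye swap, and in sample C 0.30 and 0.44, with -0.73 on the dye swap. The dye swaps were the lowest array of each sample, and 3 of the 6 forward arrays lay above 0. The dye-balanced log2 ratio was -0.58 ± 0.44 (SD, n = 3), a ratio of 0.670, with limma's adjusted p = 0.0086, and it was -0.45 relative to the median of all tested probes. Without the second array of sample C it was -0.59 (adjusted p = 0.0064). The call was lost without sample A (log2 ratio -0.61, adjusted p = 0.059) and without sample B (-0.34, adjusted p = 0.61). It was kept under 8 of 15 alternative settings, with adjusted p between 0.0064 and 0.97, and the log2 ratio was below 0 in all 15.

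CDK2 is the kinase that cyclins E and A activate at the entry to and during S phase. Its log2 ratios in sample A were -0.38 and -0.35 on the forward arrays and -0.58 on the dye swap. In sample B they were -0.56 on the single forward array with a value and -0.97 on the dye swap. In sample C they were 0.13 and 0.20, and -0.69 on the dye swap. It was below 0 on 6 of 8 arrays, and both exceptions were arrays of sample C. The dye-balanced log2 ratio was -0.50 ± 0.25 (SD, n = 3), a ratio of 0.707, with limma's adjusted p = 0.035, and it was -0.38 relative to the median of all tested probes. Without the second array of sample C it was -0.51 (adjusted p = 0.028). The call was kept under 2 of 15 alternative settings, both of them changes to that array, with adjusted p between 0.028 and 0.80, and was lost whichever sample was left out. With each array centred on its median the log2 ratio was -0.37 (adjusted p = 0.11).

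**Figure D2:**
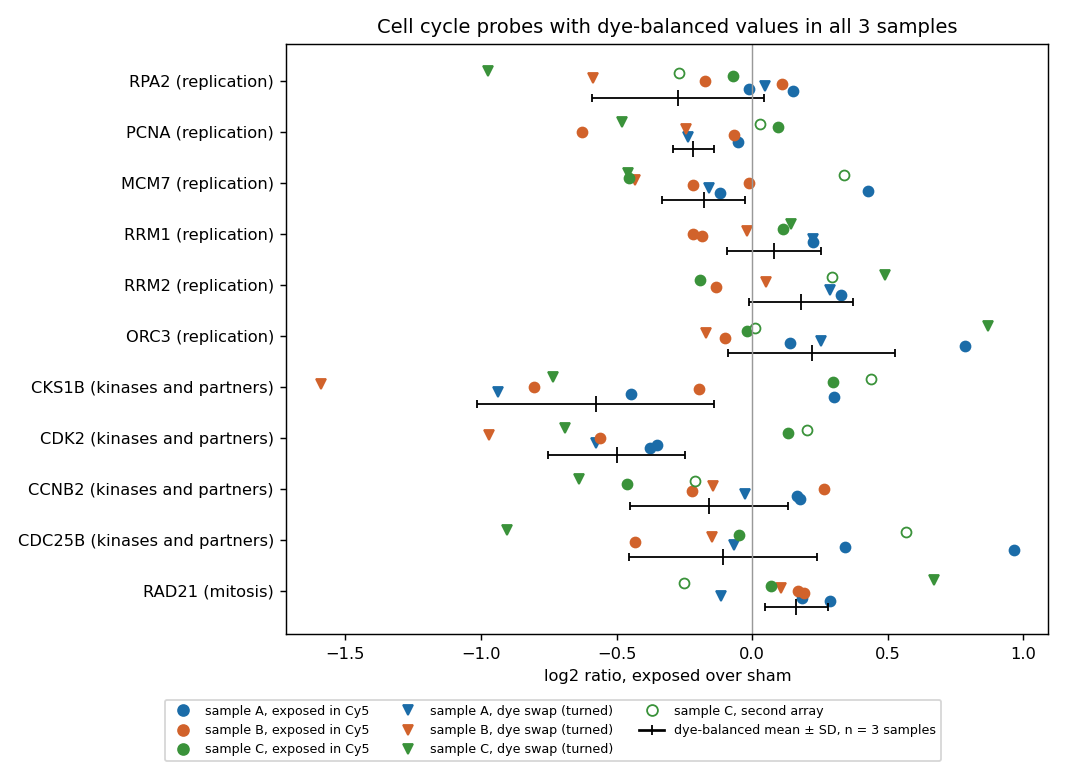
Log2 ratio of exposed over sham cells (horizontal axis) on each array for the 11 genes with dye-balanced values in all 3 samples. Circles are forward arrays (exposed RNA in Cy5), triangles turned dye swaps, the open circle the second array of sample C, and bars the dye-balanced mean ± SD (n = 3). The lowest points of CKS1B and CDK2 are triangles, at -1.59 and -0.97, both of sample B.

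The other tested members of this class were CCNB2, a mitotic cyclin, and CDC25B, the phosphatase that activates CDK1 at the entry to mitosis. CCNB2 had log2 ratios from -0.64 on the dye swap of sample C to 0.26 on the second array of sample B. Its dye-balanced values were 0.07 in sample A, -0.06 in sample B and -0.49 in sample C, with a mean of -0.16 ± 0.29 (SD, n = 3; adjusted p = 0.59, limma). CDC25B ranged more widely, with values between -0.91 on the dye swap of sample C and 0.96 on the first array of sample A. Its dye-balanced values were 0.29, -0.29 and -0.32 in samples A, B and C, with a mean of -0.11 ± 0.35 (SD, n = 3; adjusted p = 0.74, limma). For both genes the samples lay on both sides of 0, and without sample C both means were above 0, at 0.0061 and 0.0021. The median log2 ratio of the 4 tested kinases and partners was -0.33.

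Among the 6 tested replication genes none passed the test. Their median log2 ratio was -0.05, with 3 below 0 and 3 above. Over the 570 probes the median was -0.12, and 75.3% lay below 0. The sliding clamp PCNA, which tethers DNA polymerases, was the most even of them over the samples, at -0.14 in sample A, -0.30 in sample B and -0.21 in sample C, with a mean of -0.22 ± 0.076 (SD, n = 3; adjusted p = 0.43, limma). Its single arrays ran from -0.63 to 0.09, and 6 of 8 were below 0. RPA2, a subunit of the protein that coats single-stranded DNA, was at 0.06, -0.31 and -0.57 in the 3 samples, with a mean of -0.27 ± 0.32 (adjusted p = 0.29). Its 9 arrays ran from -0.97 on the dye swap of sample C to 0.15 on the first array of sample A. MCM7, a subunit of the replicative helicase, was at -0.0016, -0.27 and -0.26, with a mean of -0.18 ± 0.15 (adjusted p = 0.54). Thus RPA2 and MCM7 were near 0 or above it in sample A and lower in samples B and C.

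The remaining replication genes of this set had means above 0. ORC3, a subunit of the origin recognition complex, was at 0.36 in sample A, -0.13 in sample B and 0.43 in sample C, with a mean of 0.22 ± 0.31 (SD, n = 3; adjusted p = 0.42, limma). Single arrays of ORC3 reached 0.78 in sample A and 0.87 on the dye swap of sample C. The subunits of ribonucleotide reductase were also lowest in sample B. RRM2, its regulated small subunit, was at 0.31, -0.04 and 0.27 in samples A, B and C, with a mean of 0.18 ± 0.19 (adjusted p = 0.54). RRM1, its large subunit, was at 0.22, -0.11 and 0.13, with a mean of 0.08 ± 0.17 (adjusted p = 0.82). In each of these 3 genes, sample B was the one below 0.

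RAD21, the cohesin subunit that separase cuts when sister chromatids part, was the one tested mitotic gene. Its log2 ratio was above 0 on 7 of 9 arrays, from -0.25 on the second array of sample C to 0.67 on the dye swap of that sample. The dye-balanced values were 0.06, 0.14 and 0.29 in samples A, B and C, with a mean of 0.16 ± 0.12 (SD, n = 3; adjusted p = 0.58, limma). It was above 0 in all 3 samples. One sign in the 3 samples, whether above or below 0, was seen in 220 of the 570 probes (38.6%). Since 75.3% of the 570 probes had a mean below 0, that share is no background for a gene above 0. The share above 0 in all 3 samples was not counted.

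The tested kinases and partners had lower ratios on the dye swaps than on the forward arrays. Forward, the median log2 ratio of these 4 genes was -0.06, and on the dye swaps alone it was -0.56. Over all 570 probes the medians were -0.07 and -0.18, and for the 6 replication genes they were 0.02 and -0.10. All 4 kinases and partners were lower on the dye swaps, as were 7 of the 11 genes (63.6%) and 351 of the 570 probes (61.6%). CKS1B had a forward mean of -0.07 and a swap mean of -1.09, CDK2 means of -0.25 and -0.75, and CDC25B means of 0.16 and -0.37. The sign was the same in both orientations for 10 of the 11 genes (90.9%), CDC25B being the exception, against 56.3% of the 570 probes. Several of the forward means lay near 0, at -0.0061 for MCM7, -0.04 for RPA2, 0.05 for RRM1 and -0.05 for CCNB2. That of CDK2 lay furthest from 0.

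A test of the dye itself, with exposure and dye as terms over the 9 arrays, called 1 of the 11 genes. Limma called the Cy5 signal higher than the Cy3 signal at 41 of the 570 probes (7.19%) and lower at 2 (0.351%). CKS1B was among the 41, with a log2 Cy5 over Cy3 of 0.51 that did not follow the exposure (adjusted p = 0.017). This dye call was lost after centring each array (0.43, adjusted p = 0.054), without sample A (0.55, adjusted p = 0.094) and without sample B (0.49, adjusted p = 0.052). For CDK2 this dye effect was 0.28 (adjusted p = 0.13) and for CDC25B 0.33 (adjusted p = 0.13). Of the 22 probes called lower in exposed cells, 8 also passed the test for the dye. In this fit the exposure effect of CKS1B was -0.58 (adjusted p = 0.041) and that of CDK2 was -0.47 (adjusted p = 0.053). Both terms were estimated in 1 fit. Its units were single arrays, and the correlation within a sample was estimated at -0.078. The p-values of this fit therefore treat arrays of 1 sample nearly as independent replicates. Of the 6 forward arrays of CKS1B, 3 were below 0 and 3 above. Its forward mean of -0.07 equalled the forward median of all 570 probes, and its adjusted p on these arrays alone was 0.97 (limma). Without the second array of sample C, limma, again on single arrays, called the Cy5 signal higher at 42 probes and lower at 1. The dye effect of CKS1B was then 0.46 (adjusted p = 0.025), and the exposure effects were -0.63 for CKS1B (adjusted p = 0.014) and -0.52 for CDK2 (adjusted p = 0.019).

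**Figure D3:**
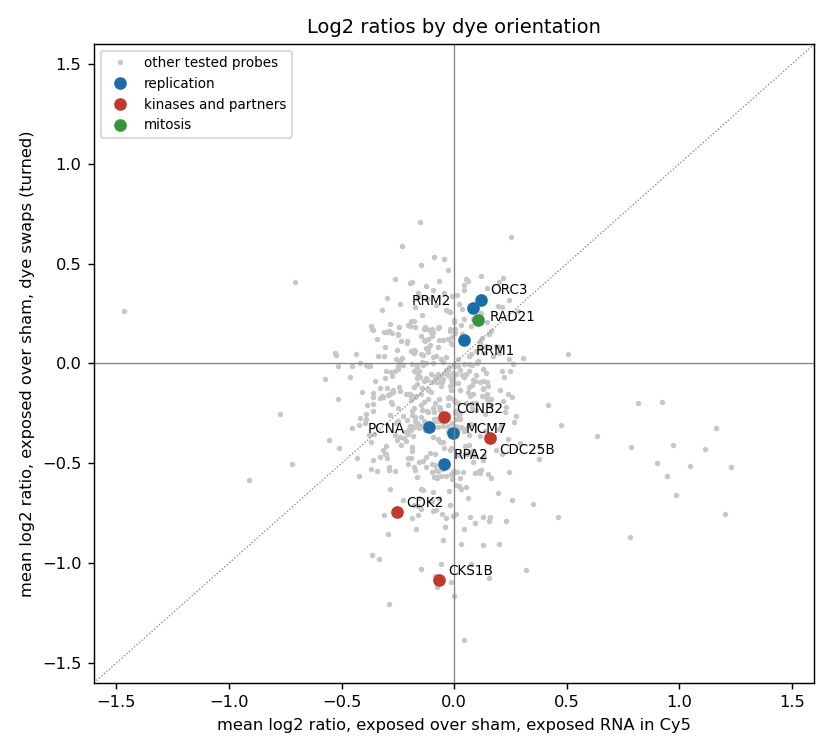
Mean log2 ratio of exposed over sham cells over the forward arrays, exposed RNA in Cy5 (horizontal axis), and on the turned dye swaps (vertical axis) for 570 probes, with the cell cycle genes in colour. Points on the dotted line have equal ratios in both orientations. CKS1B lies at -0.07 and -1.09, and CDK2 at -0.25 and -0.75, both well below the line.

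The wider set of 45 probes for 41 genes, those measured in 2 or 3 biological samples, gave no call. Limma over all 5688 such probes called 0 lower (0%) and 0 higher (0%), with 216 at an unadjusted p under 0.05 and a smallest adjusted p of 0.88. Among the 45, CKS1B and CDK2 were under an unadjusted p of 0.05. In this fit a sample measured in 1 orientation is not dye-balanced, and 2359 of the 5688 probes lack 1 sample. The median log2 ratio of the 45 was -0.11, with 28 below 0 and 17 above, against -0.09 over all 5688. Of those 5688 probes, 65.8% lay below 0. By class it was -0.15 for 17 replication probes (12 below 0), -0.07 for 12 of kinases and partners (7 below 0) and -0.07 for 16 mitotic probes (9 below 0).

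Of the replication genes in the wider set, GINS2, a subunit of the GINS complex that joins the MCM helicase, had 1 probe with the same sign on every array that measured it. Probe PH_hs_0035960 was at -0.42 and -0.31 in sample A, -0.56 and on the dye swap -0.49 in sample B, and -0.39 and -0.13 in sample C. The mean was -0.38 ± 0.14 (SD, n = 3; adjusted p = 0.88, limma), and it lay between -0.45 and -0.31 under 7 alternative settings. The other GINS2 probe, PH_hs_0020095, was at -0.36, -0.01 and 0.26 on its 3 arrays, so the probes of this gene disagreed. NASP, a histone chaperone, was at -0.39 ± 0.40, with -0.85 in sample B and -0.16 in both other samples. The helicase subunits MCM3 and MCM4 were at -0.18 ± 0.40 and -0.19 ± 0.11, and MCM2 had values of opposite sign in its 2 samples, -0.56 in A and 0.57 in C. UHRF1, which recruits the maintenance DNA methyltransferase, ranged from -0.82 in sample B to 0.45 in sample A. The first of these values rests on the dye swap alone and the second on forward arrays alone. The licensing inhibitor GMNN was at -0.15 ± 0.19, the chromatin remodeller HELLS at -0.09 ± 0.32, the clamp loader subunit RFC2 at -0.04 ± 0.06, and the thymidylate synthase TYMS at 0.08 in 2 samples.

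The kinases and cyclins outside the tested set lay on both sides of 0. CDK1, the kinase of mitotic entry, was at 0.32 and 0.18 in sample A, 0.36 and on the dye swap 0.72 in sample B, and 0.02 and -0.30 in sample C. It was above 0 on 5 of its 6 arrays, the exception being the second array of sample C, and its mean was 0.22 ± 0.34 (SD, n = 3; adjusted p = 0.88, limma). Without that array the mean was 0.27 (adjusted p = 0.74). CKS2, the relative of CKS1B, was at 0.11 ± 0.33, above 0 on 3 arrays and below it on 3. CDK4, the kinase of early G1 phase, had probes at -0.33 ± 0.38 and -0.03 ± 0.10. Its partner cyclin D1 (CCND1) was at -0.16 ± 0.48. Cyclin B1 (CCNB1) was at 0.03 ± 0.013, but its single arrays ran from -0.18 to 0.27. Cyclin A2 (CCNA2) and the transcription factor E2F1 were at 0.06 and 0.11 in 2 samples each.

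Several mitotic genes spread widely between samples. NUSAP1, which bundles spindle microtubules, was at -0.11 in sample A, -1.13 in sample B and -0.33 in sample C, with a mean of -0.52 ± 0.54 (SD, n = 3). CENPE, a kinetochore motor, had the highest mean of the 45 probes, 0.41 ± 0.54, with 0.36 in sample A, 0.97 in sample B and -0.10 in sample C. Neither passed the test (adjusted p = 0.88 each, limma). In sample B both values rested on the dye swap alone. CENPF, another kinetochore protein, was at -1.37 in sample B, on the dye swap alone. It was above 0 in samples A and C, on forward arrays alone. A probe of AURKB, the kinase of the chromosomal passenger complex, was at -1.53 on the dye swap of sample B. The same probe was at 0.24 on a forward array of sample A, and the other AURKB probe had a mean of -0.20 ± 0.28. For CENPF and the first of these AURKB probes, sample and dye orientation cannot be told apart. BIRC5, a partner of AURKB in that complex, had probes at -0.38 ± 0.47 and, in 2 samples, 0.10. The proliferation marker MKI67 was at -0.20 ± 0.48, the spindle kinase AURKA at -0.13 ± 0.33, and its activator TPX2 at 0.23 ± 0.65. The kinesin KIF2C was at -0.01 ± 0.09. Measured in 2 samples each, the kinesin KIF11 was at 0.03, the checkpoint kinase TTK at 0.30, the hyaluronan receptor HMMR at -0.15 and the centromeric histone CENPA at 0.08.

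**Figure D4:**
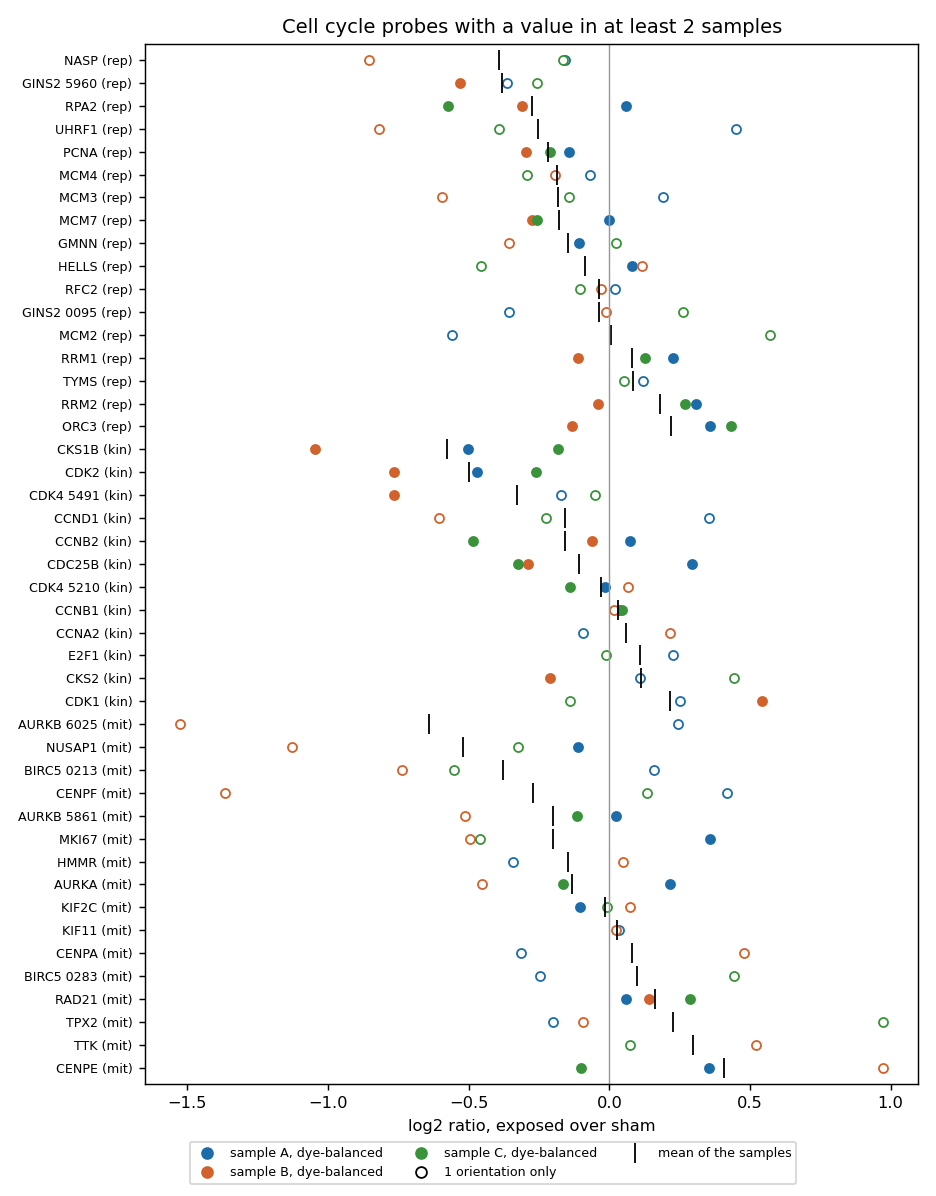
Log2 ratio of exposed over sham cells (horizontal axis) in each biological sample for the 45 cell cycle probes with a value in at least 2 samples, grouped as replication (rep), kinases and partners (kin) and mitosis (mit). Filled circles are dye-balanced, open circles rest on 1 orientation, ticks are means over the samples, and 4 digits after a gene name end the probe's number. The points of sample B reach -1.53 for a probe of AURKB and 0.97 for CENPE, both on the dye swap alone.

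Some genes were read on a single array, which gives no replicate check. MCM5 had 3.93 on the first array of sample C, MCM6 had 0.70 and CDT1 had 0.09 on the second array of sample A, and CDC6 had -0.09 on the dye swap of sample B. PLK1 had -0.65 on the first array of sample A, the second CENPA probe had -0.77 on the second array of sample A, and UBE2C had -0.09 on the second array of sample C. The MCM5 value stands apart from all other array values of the 61 probes, which lie between -1.59 and 0.97.

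The order of the samples was the same in the cell cycle genes as in all probes, with the median highest in sample A and lowest in sample B. The median of the 45 cell cycle probes was 0.03 in sample A, -0.21 in sample B and -0.13 in sample C, and that of all 5688 probes was 0.05, -0.27 and -0.10. In the replication probes it was 0.02, -0.27 and -0.14, and in the kinases and partners 0.05, -0.21 and -0.14. In the mitotic probes it was 0.03, -0.09 and -0.05. Of these mitotic probes, 15 had a value on the dye swap of sample B and 1 on each of its forward arrays. In sample A, 15 had a value on the second forward array and 7 on the dye swap. For this class, sample order and dye orientation therefore cannot be told apart. On single arrays the class medians lay between -0.66, for kinases and partners on the dye swap of sample C, and 0.19, for 1 mitotic probe on the first array of sample B. The deposited array medians ran from -0.35 to 0.38 as Cy5 over Cy3, and their part in these class medians was not tested.

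**Figure D5:**
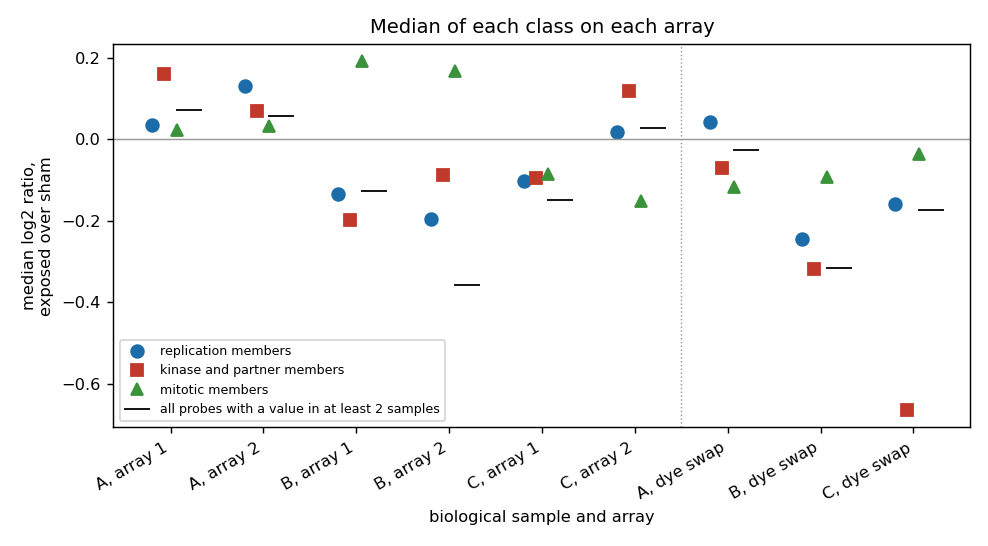
Median log2 ratio of exposed over sham cells (vertical axis) of each class on each array (horizontal axis, dye swaps right of the dotted line), over the cell cycle probes with a value in at least 2 samples, and of all such probes (bars). The replication members and the kinases and partners lie on the same side of 0 as the bars on most arrays. The mitotic members lie on the other side on both forward arrays of sample B (1 probe on each) and on the second array of sample C (3 probes). The kinases and partners fall to -0.66 on the dye swap of sample C, where 6 of them were measured.

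Other genes of the same pathways, taken from lists of their known members, gave 0 calls in either fit. Among other replication factors 2 were in the dye-balanced set: thymidine kinase TK1 at -0.38 (adjusted p = 0.13, limma) and the clamp loader subunit RFC4 at -0.0045 (adjusted p = 1.00). In the wider fit 17 of their 22 probes were below 0, with a median of -0.20. The share below 0 over all 5688 probes of that fit was 65.8%. Of the ubiquitin ligases that drive the cycle, the SCF enzyme CDC34 was at -0.28 (adjusted p = 0.29) and the scaffold CUL1 at 0.20 (adjusted p = 0.48), and 8 of 13 probes were below 0 in the wider fit. SKP2, the SCF subunit that CKS1B assists, was at -0.18 (adjusted p = 0.54), a value read after those of CKS1B were seen. Of other mitotic proteins the kinetochore protein ZWINT was at -0.17 (adjusted p = 0.57) and the kinesin KIF22 at -0.12 (adjusted p = 0.70), and 14 of 28 probes were below 0 in the wider fit. For the checkpoint proteins, TOPBP1 was at -0.0015 (adjusted p = 1.00) and 6 of 8 probes were below 0. Other cyclins, kinases and E2F partners had 12 of 18 probes below 0 and the inhibitors of cyclin-dependent kinases 2 of 2, none of them in the dye-balanced set.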

How the data were processed

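RNA of exposed and non-exposed (sham) HaCaT cells was amplified, labelled and hybridized on 9 arrays of 3 biological samples. Per the study's methods, the scans were normalized in ScanArray Express. The authors deposited 1 value per probe and array, taken as the log2 of Cy5 over Cy3. The table does not state its scale. Read as log2, the ratios were whole thousandths (tolerance 0.05) for 86.6% to 99.1% of the values, and read as natural or decimal logarithm for at most 10.3%. Direction came from the dyes in the labels, and dye swaps were turned. Centring was kept as deposited. Intensities and backgrounds were not analysed here, and precision is limited by how few arrays there are.

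Of 30968 probes, 17397 have 1 gene symbol, 13571 have none and 0 have several, and 99.5% of symbols matched RefSeq names. CDC2 was read as CDK1 and ORC3L as ORC3. Several probes of a gene were kept apart. An intercept was fitted to the dye-balanced values by limma 3.58.1 (R 4.3.3; lmFit and moderated by eBayes), and two-sided p-values were adjusted by Benjamini-Hochberg over all probes tested. A second fit took probes with a value in at least 2 samples. The dye fit used 9 arrays with exposure and dye terms and the sample as a random block (correlation -0.078). SAM, the test named in the study's methods, was not run because its software was not installed. Of the fully measured members, CKS1B and CDK2 are given by array and the others by sample. Most other members in 2 or more samples are given by mean, and some by array or sample values. Of each further list, the 2 with the smallest p are given. Members and lists were chosen with earlier results of these data known.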

Additional observations from a re-analysis of the deposited data

Results flagged for a closer look

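Of 33 cell cycle probes measured on 4 to 9 arrays, 2 had a single array far from the others, and chance alone sets about 1 in 20 groups apart in this way. For CDK4, the dye swap of sample B gave the probe PH_hs_0035491 a log2 ratio of -1.27, where the nearest of the other 6 arrays was at -0.26. For HELLS, the first array of sample C gave the probe PH_hs_0011979 a log2 ratio of -0.458, where the nearest of the other 3 arrays was at 0.04.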

How the results depend on the processing

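The direction of CKS1B and CDK2 was the same under all 15 alternatives, and their calls were not. Of the 11 genes, 0 passed with a plain mean of the 3 arrays, with the forward arrays alone, after quantile normalization, with each probe on its own spread, and with 9 arrays as independent replicates. Only CKS1B passed, so that the count was 1, with only the dye swaps, after centring each array, with both orientations in at least 2 samples, with robust eBayes, and with dye and exposure terms over 9 arrays. Leaving out 1 sample gave 0 to 1. CKS1B and CDK2 passed without the second array of sample C and with it read as a dye swap, settings chosen after seeing the data. Against 22 lower and 0 higher over all 570 probes, the plain mean gave 8 lower and 3 higher, the forward arrays gave 5 and 14, centring gave 13 and 4, the dye swaps 10 and 0, quantile normalization 9 and 1, and dye and exposure terms 9 and 0. Each probe on its own spread and 9 arrays as independent replicates gave 0, with 32 and 95 at an unadjusted p under 0.05 in limma. Leaving out 1 sample gave 3 to 10 lower. Without the second array of sample C there were 37 and 1, and with it read as a dye swap 34 and 2. The median of the kinases and partners was -0.0577 on the forward arrays, -0.56 on the dye swaps and -0.132 over 6 probes with both orientations in at least 2 samples. CDC25B was at 0.161 on the forward arrays and at 0.0344 with 9 arrays as independent replicates. Without 1 sample it ran from -0.306 to 0.0021, and CCNB2 from -0.273 to 0.0061. The dye effect of CKS1B, the 1 gene of the 11 called for it, was lost after centring, with 0 calls, and leaving out 1 sample gave 0 to 1. Over all 570 probes, against 41 higher and 2 lower for the dye, centring gave 21 and 5, and leaving out 1 sample gave 17 to 37 higher and 1 lower. The causes were not tested. In the wider fit 0 probes of these genes passed under any of 7 alternatives. No setting for background, slide or dim probes was tried, since the table holds ratios only. No separate pairing term was fitted, because each ratio already pairs exposed and sham RNA of 1 sample. Signal over background is unknown.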
